A study of Mus musculus with 16 samples.

Results

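The regions described here carried more histone H3 lysine 9 beta-hydroxybutyrylation (H3K9bhb) in fasted than in fed mice by the authors' listing, and lay within the body of a protein-coding gene shorter than 200 kb. They were chosen by position alone. A region was taken when its centre lay on chromosomes 1 to 19 inside a protein-coding gene of the RefSeq table of GRCm38.p6 (mm10), when every such gene around it was under 200 kb, and when it was more than 1 kb from every protein-coding gene end. Regions packed in rows of 5 or more, none over 20 kb from the next, were left out. The rule kept 1246 of the 8404 regions in the fasted list, or 14.8% (95% Wilson interval 14.1 to 15.6%). They lay in 1077 host genes and covered 287.6 kb. The rest of the list held 2324 regions at gene ends, 725 inside genes of 200 kb or more, 3056 outside coding genes on the same chromosomes, 489 in runs and 564 on other sequences.

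The study immunoprecipitated H3K9bhb from occipital cortex. The mice were C57BL/6J, at postnatal day 35, and had either fasted for 48 h or fed ad libitum. Each feeding state had 4 immunoprecipitated and 4 input libraries. The labels give no transgene, drug or other allele for either group. The deposited lists give 1 log-LR (log likelihood ratio) per region for a whole group, and only 1 region was listed for ad libitum mice. No value per library was in the lists, so the depth is unknown, no spread between mice can be given and nothing was tested between mice. All intervals cover counting error only. The tissue is a mixture of cells, in which more cells with the mark and more mark per cell cannot be told apart.

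Beta-hydroxybutyrate is the main circulating ketone body, made in the liver from fatty acids when food is withheld and used by the brain as fuel. It can also be attached to lysines of histones, and H3K9bhb is known from fasted liver as a mark found near active promoters. Many genes have more than one promoter, and an alternative promoter can lie kilobases inside the gene as annotated from its outermost ends. Mammalian promoters fall broadly into CpG islands, which are rich in G, C and the dinucleotide CpG, and promoters poor in CpG.

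Inner starts, meaning annotated protein-coding transcript starts inside eligible genes and more than 1 kb from every gene end, took a large share of these regions, so the DNA around 5 of them is shown first. Each sequence is the RefSeq promoter window, from 250 bases before to 50 bases after a start of the host gene, read 5′ to 3′ on the gene's strand in GRCm38.p6. Capitals mark the bases inside the fasted region. Ltk, Cacnb3, Ddr1 and Brd2 hold the highest log-LR among regions with at least 100 bases in such a window, and Sp3 was chosen after its values were seen because its region was centred on the start.
Ltk: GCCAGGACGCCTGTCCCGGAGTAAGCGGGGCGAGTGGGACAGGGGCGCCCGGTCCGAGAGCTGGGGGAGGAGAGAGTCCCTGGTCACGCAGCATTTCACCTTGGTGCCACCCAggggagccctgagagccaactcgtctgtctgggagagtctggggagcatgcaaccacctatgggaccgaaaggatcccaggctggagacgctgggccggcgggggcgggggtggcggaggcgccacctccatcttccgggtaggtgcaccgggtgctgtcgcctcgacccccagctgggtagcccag
Cacnb3: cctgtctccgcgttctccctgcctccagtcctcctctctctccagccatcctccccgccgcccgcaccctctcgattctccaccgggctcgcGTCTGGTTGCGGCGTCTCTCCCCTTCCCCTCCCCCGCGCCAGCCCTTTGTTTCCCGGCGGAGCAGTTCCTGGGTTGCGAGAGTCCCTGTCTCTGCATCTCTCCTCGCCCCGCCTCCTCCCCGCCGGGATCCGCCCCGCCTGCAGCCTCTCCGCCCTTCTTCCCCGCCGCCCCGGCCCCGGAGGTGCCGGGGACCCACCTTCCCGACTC
Ddr1: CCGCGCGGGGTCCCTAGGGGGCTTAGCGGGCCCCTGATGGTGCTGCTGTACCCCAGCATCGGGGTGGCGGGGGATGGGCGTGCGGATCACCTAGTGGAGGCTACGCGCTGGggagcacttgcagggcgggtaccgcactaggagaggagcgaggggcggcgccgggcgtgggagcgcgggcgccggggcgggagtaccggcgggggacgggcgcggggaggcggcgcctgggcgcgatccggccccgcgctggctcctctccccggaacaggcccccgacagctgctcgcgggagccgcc
Brd2: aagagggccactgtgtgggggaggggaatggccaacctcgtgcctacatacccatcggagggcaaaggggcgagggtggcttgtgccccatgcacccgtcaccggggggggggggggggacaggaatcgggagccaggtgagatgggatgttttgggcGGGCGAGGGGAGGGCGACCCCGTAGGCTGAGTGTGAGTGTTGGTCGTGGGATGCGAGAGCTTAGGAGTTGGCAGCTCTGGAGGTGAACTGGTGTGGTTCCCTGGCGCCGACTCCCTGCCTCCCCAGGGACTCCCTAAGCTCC
Sp3: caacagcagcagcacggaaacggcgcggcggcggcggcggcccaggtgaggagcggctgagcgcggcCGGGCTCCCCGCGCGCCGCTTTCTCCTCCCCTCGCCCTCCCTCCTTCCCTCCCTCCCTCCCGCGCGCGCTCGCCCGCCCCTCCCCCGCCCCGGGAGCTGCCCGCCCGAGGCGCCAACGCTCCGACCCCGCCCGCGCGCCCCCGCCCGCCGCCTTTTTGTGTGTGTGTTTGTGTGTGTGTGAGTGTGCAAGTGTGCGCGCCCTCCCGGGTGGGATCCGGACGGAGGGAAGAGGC

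The first window, of Ltk, a receptor tyrosine kinase, is chr2:119758476-119758775 on the minus strand, 1906 bp from the nearest gene end, and 113 of its bases were in the region, which had a log-LR of 10.8. Cacnb3 encodes a beta subunit of voltage-gated calcium channels. Its window is chr15:98634517-98634816 on the plus strand, 6331 bp inside the gene, and the region (log-LR 10.1) covered 208 bases and was centred 22 bp before the start. Ddr1, a collagen receptor kinase, has its window at chr17:35700541-35700840 on the minus strand, where the region took 111 bases with a log-LR of 8.54. Brd2, a bromodomain reader of acetylated histones, has its window at chr17:34121698-34121997 on the minus strand, and 142 bases were covered at a log-LR of 8.30. The window of Sp3, a transcription factor that binds GC boxes, is chr2:72979232-72979531 on the minus strand, and 233 bases were covered by a region centred 1 bp from the start with a log-LR of 7.65. These windows were rich in G and C, at 69.3% in Ltk, 72.0% in Cacnb3, 77.7% in Ddr1, 66.0% in Brd2 and 76.3% in Sp3. The ratio of observed to expected CpG was 0.567 in Ltk and 0.466 in Brd2, and between 0.886 and 0.977 in the other 3.

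Regions inside genes were concentrated around inner and other annotated starts. On the 18 chromosomes with start positions in the promoter table, 360 of 1203 regions (29.9%, 27.4 to 32.6%) were within 1 kb of an annotated protein-coding start. That space was 1.22% of the gene interior, the DNA of eligible genes more than 1 kb from any end. Density there was 55.8 regions per Mb (exact 95% Poisson interval 50.2 to 61.9), beside 1.62 per Mb (1.51 to 1.73) farther away, a ratio of 34.6. For 308 of the 360 the start was over 1 kb from every gene end, and for 52 it belonged to the end region. The table gave no start for some host genes. Among hosts with a start in the table the share near one was 358 of 993 regions (36.1%), and the densities were 55.7 and 1.49 per Mb.

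The density around starts was similar inside genes of 200 kb or more, 56.2 per Mb (42.2 to 73.3), beside 1.67 per Mb (1.54 to 1.81) away from starts there. The intervals overlapped those of the shorter genes at both places. The shares differed, with 54 of 692 regions of the long genes near a start (7.80%). Across all gene interior, density was 2.28 per Mb (2.16 to 2.41) in the genes under 200 kb, 1.83 (1.70 to 1.96) in the longer ones and 2.16 (2.09 to 2.24) outside coding genes. The last value can be too high. Its regions include any beyond the first or last coding gene of a chromosome, and the DNA there was not counted. Starts of long non-coding RNAs that were away from coding starts had 25 regions, or 7.90 per Mb (5.11 to 11.7), and DNA away from both kinds of start had 1.58 per Mb.

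**Figure D1:**
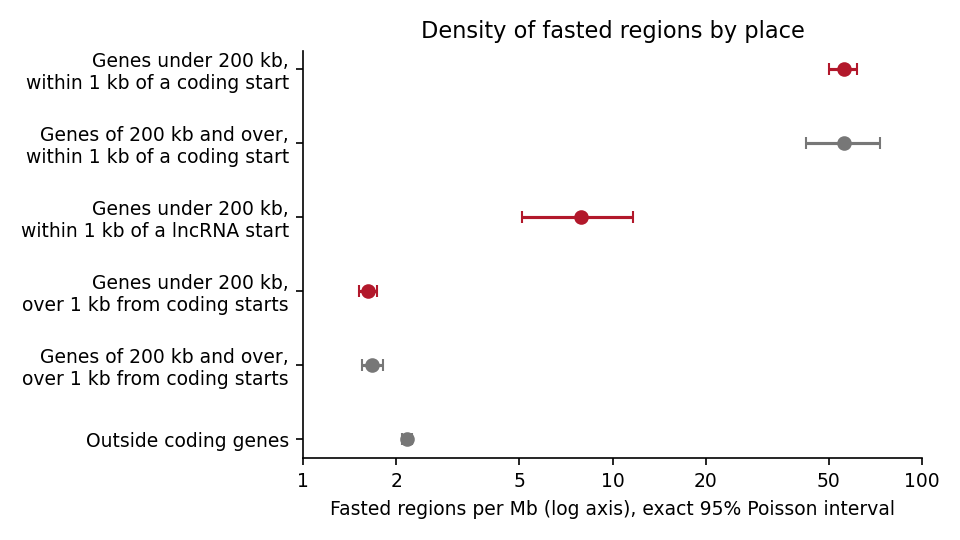
Fasted regions per Mb (log axis) by place, with points for the density and lines for exact 95% Poisson intervals. Inside genes under 200 kb the density near annotated coding starts was 55.8 per Mb and away from them 1.62 per Mb, and genes of 200 kb or more had 56.2 and 1.67 per Mb. Starts of long non-coding RNAs (lncRNA) lie between, at 7.90 per Mb.

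Around inner starts the regions lay mostly downstream. The profile used the 200 regions whose nearest start was over 2 kb from every gene end, so that the whole window of 1 kb to each side was open to the rule. Of these, 158 were centred downstream of the start and 42 upstream. The 2 bins that cover the first 500 bp after the start held 27.0% and 30.0% of them, and the 250 bp before it held 12.5%. Regions at gene ends, counted the same way over 1797 regions, had 32.8% and 37.2% in the first 500 bp and 7.29% in the 250 bp upstream. Between 750 and 1000 bp downstream the inner starts had 10% and the gene ends, where the limit of 1 kb from an end cuts the window for some starts, 3.62%. Among these 200, the region of Sin3a, a corepressor scaffold, lay 269 bp downstream, that of Synj1, a phosphatase of synaptic vesicle recycling, 341 bp and that of Cox5a, a subunit of cytochrome c oxidase, 425 bp.

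**Figure D2:**
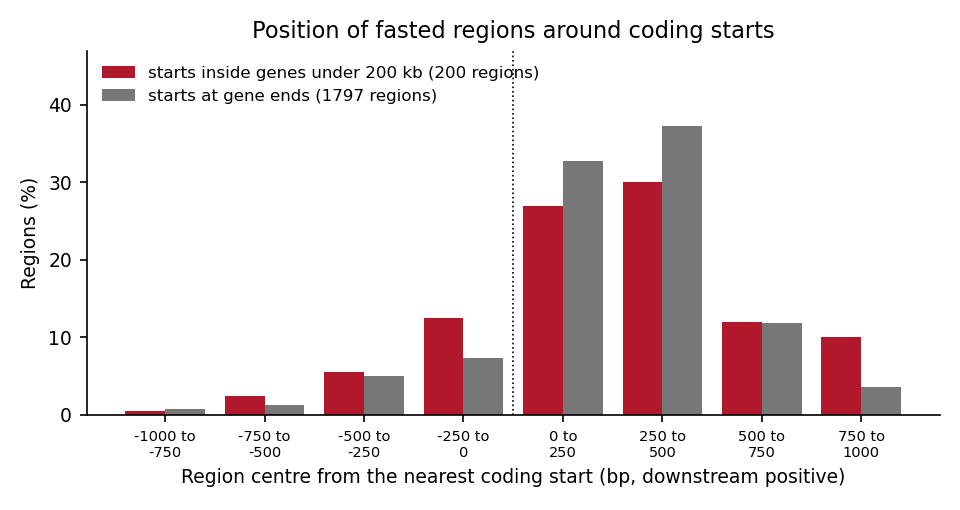
Share of regions (percent) by distance of the region's centre from the nearest annotated coding start in 250 bp bins, negative values upstream, for 200 regions at inner starts and 1797 regions at gene ends. Both profiles are highest in the first 500 bp downstream, at 27.0% and 30.0% for inner starts and 32.8% and 37.2% for gene ends.

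Most inner starts had no region, and most of those with one were CpG-rich. Within 1 kb of an inner start a region was found for 353 of 3230 starts (10.9%). In the 300-base windows of these 353, the median G and C content was 66.3% and the median CpG ratio 0.833, beside 54.0% and 0.357 for the 2877 without a region. A window was called CpG-rich at a CpG ratio of at least 0.6 and a G and C content of at least 50%. By this ratio the windows of Ltk and Brd2 shown above were not CpG-rich. The windows of 286 of the 353 (81.0%, 76.6 to 84.8%) and of 821 of the 2877 (28.5%, 26.9 to 30.2%) were CpG-rich. Read the other way, 25.8% of CpG-rich inner starts (23.3 to 28.5%) and 3.16% of other inner starts (2.49 to 3.99%) had a region. The starts at gene ends had 23.1% (22.2 to 24.0%) and 3.95% (3.55 to 4.39%), so inner and outer starts of one CpG class differed little beside the difference between classes. How G and C content moves the recovery of fragments in sequencing was not tested here.

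Motifs that hold CpG were more frequent in windows with a region. The GC box, searched as GGGCGG or CCGCCC, was in 75.1% of windows with a region, in 35.3% of inner windows without one and in 47% of all coding start windows. The E-box CACGTG, which the clock factor CLOCK and its relatives bind, was in 10.2%, 5.84% and 7.89%. The cAMP response element TGACGTCA was in 3.12%, 1.36% and 2.30%, from 11 windows with a region. The AP-1 letters TGACTCA or TGAGTCA were less frequent in windows with a region, at 3.12% beside 5.60% and 4.70%, also from 11 windows. No intervals were computed for motif shares, and counts of 11 are too small to set either motif firmly apart. Both strands were read. The first 3 hold CpG and the AP-1 letters do not, and a match is a string of letters, not evidence of binding.

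The regions thinned from the 5′ end of the gene to the 3′ end. Between 1 and 2 kb from the 5′ end the density was 16.1 per Mb (14.0 to 18.5; 204 regions), and between 1 and 2 kb from the 3′ end it was 1.04 per Mb (0.556 to 1.79; 13 regions). At 2 to 5 kb the 5′ side had 4.22 per Mb and the 3′ side 1.93, and from 5 to 10 kb both had 2.12 per Mb. The 978 regions with a single, oriented host gene fell as 436, 228, 195 and 119 into the 4 equal parts of the gene from 5′ to 3′, or 4.32, 2.0, 1.71 and 1.19 per Mb. Of the 436 in the first part, 266 were near an annotated start, and of the 119 in the last part 6 were. Without the regions near starts the 4 parts held 170, 176, 168 and 113 regions. Per Mb of each part these were 1.69, 1.54, 1.47 and 1.13, so the density still fell along the gene, but less steeply, and the last part remained the lowest.

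**Figure D3:**
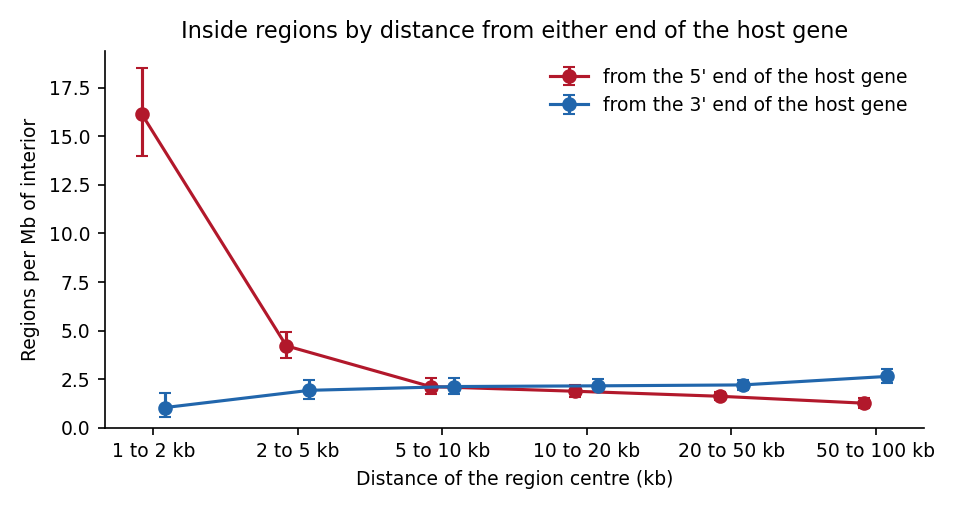
Regions per Mb of gene interior against distance from the 5′ end and from the 3′ end of the host gene (kb), with exact 95% Poisson intervals. Between 1 and 2 kb the 5′ side stands at 16.1 per Mb and the 3′ side at 1.04 per Mb, and both are at 2.12 per Mb from 5 to 10 kb.

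Longer genes were hosts more often but held fewer regions per Mb. Of 17429 eligible genes, those over 2 kb and under 200 kb on these chromosomes, 1077 held a region (6.18%, 5.83 to 6.55%). The share of hosts was 1.72% among genes of 2 to 10 kb, 3.37% at 10 to 25 kb, 6.58% at 25 to 50 kb, 13.0% at 50 to 100 kb and 19.9% at 100 to 200 kb. Density went the other way, from 5.40 per Mb in the shortest class to 1.81 in the longest. The part of regions near a start fell along the same order from 41.2% to 21.0%. Median length was 56.4 kb for host genes and 18.5 kb for the other eligible genes.

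A host gene also had a fasted region within 1 kb of an end in 187 of 1077 cases (17.4%, 15.2 to 19.7%). An inside region whose edge reached into that 1 kb was itself counted, which can raise the share of hosts by construction. With ends set at 2 kb, where no inside region could reach that window, the share was 12.2%. Among all eligible genes the share with an end region was 13.4%, and among those with no inside region it was 2151 of 16352 (13.2%). Within length classes the difference was in the shortest genes, where 34.5% of hosts (25.3 to 44.9%) and 10.2% of the others had an end region. From 50 to 200 kb the shares were close, 15.6% of hosts beside 17.8% of others at 50 to 100 kb and 17.3% beside 18.7% at 100 to 200 kb. In genes of 2 to 10 kb an inside region is never far from an end and can itself reach the end window. Genes without an inside region cannot gain an end region in this way, so the difference can be partly by construction. A broad signal cut into separate regions and separate signals also cannot be told apart in these lists.

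The log-LR of the regions inside genes had a median of 4.99 (quartiles 4.20 and 6.24, range 3.11 to 240.8) and their width a median of 194 bp (quartiles 150 and 267 bp, range 120 to 1471 bp). Regions at gene ends had a median log-LR of 4.89, those inside long genes 4.87 and those outside coding genes 4.79, all within the quartiles of the first. The upper tail differed more than the middle. A log-LR of 10 or more was found for 54 regions (4.33%), beside 1.08% at gene ends, 2.90% inside long genes and 4.68% outside coding genes. Within the regions inside genes the tail was away from starts, where 45 of 843 (5.34%) reached 10, beside 6 of 360 (1.67%) near starts. The highest value near a start was 12.4, in Map3k6. The values were close on both sides of the limits of the rule. The 50 regions in the first 100 bp inside the limit of 1 kb from an end had a median of 4.78, and the 61 in the 100 bp just outside it had 4.82. Hosts of 180 to 200 kb had 48 regions with a median of 5.17, and genes of 200 to 220 kb, also outside, 47 regions with 4.76.

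**Figure D4:**
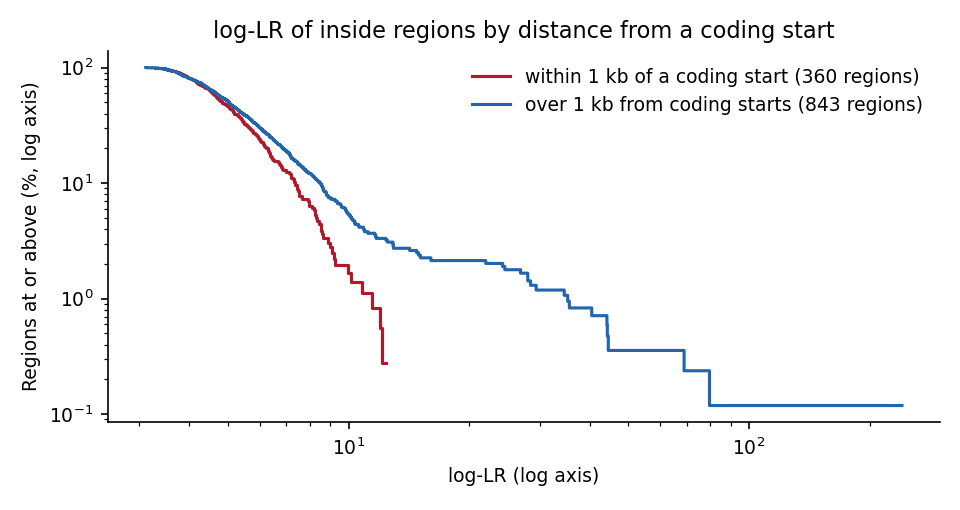
Percent of regions inside genes at or above each log-LR (both axes log), for the 360 regions within 1 kb of an annotated coding start and the 843 farther away. The curves run together at low values, the first ends at 12.4 and the second goes on to 240.8.

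The log-LR reached 20 in 18 regions, the 18th at 22.0 and the next region at 16.1. Wider steps lay among the 18, such as that from 240.8 to 79.7, so the limit of 20 does not mark a separate class. None of the 18 was within 1 kb of a coding start, which for 0 of 18 allows a share of up to 16.7%. No annotated start was available for the host Fam114a2, so a start of its own could not have been seen. None of the 18 overlapped a non-coding gene. Their median width was 186.5 bp, no greater than that of all regions inside genes. The nearest other fasted region was at a median distance of 74.7 kb, and 3 of the 18 had one within 20 kb, beside a median of 61.1 kb and 31.7% within 20 kb for all regions inside genes. The highest, 240.8, was at chr3:104798576-104799007, 83.3% of the way along Mov10, which encodes an RNA helicase that restrains retroelements. Cdc14b, a phosphatase of the cell cycle, had 79.7 at chr13:64272366-64272555, and Tshz3, a zinc finger factor of cortical projection neurons, had 68.8 at chr7:36729588-36729902. Wasf2, an actin regulator downstream of Rac, had 44.3 at chr4:133154559-133154728. Met, the hepatocyte growth factor receptor, had 40.5 at chr6:17564642-17564789. Smo, the transducer of Hedgehog signals, had 35.3 in a region of 1153 bp at chr6:29747886-29749038. The other genes of the first 10 were Gm10778 (44.5), Aida (44.2), Fam114a2 (35.6) and Mboat2 (34.6). How reads from repeated DNA were handled is not given in the sources used here, and repeat content at these places was not tested.

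Smo apart, the widest regions were not among the 10 of highest log-LR. Stam2, an endosomal sorting adaptor, held one of 1471 bp at chr2:52697022-52698492 with a log-LR of 8.06. Nsd1, a histone H3 lysine 36 methyltransferase, held one of 1154 bp (log-LR 5.64), 1084 bp from a gene end. Clk3, a kinase of splicing factors, held one of 948 bp centred 56 bp upstream of an inner start (log-LR 5.42). Eppk1, which encodes the cytolinker epiplakin, held one of 916 bp with a log-LR of 7.47. Width and log-LR went separate ways in Nsd1 and Clk3, whose values lay between the quartiles of all regions inside genes, while Smo, Stam2 and Eppk1 were above the upper quartile.

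Most host genes held a single region. Of the 1077, 919 held 1 region, 128 held 2, 25 held 3, 4 held 4 and 1 held 5. Neighbouring regions of one gene were close, with a median gap of 1055 bp over 194 gaps, and 95 gaps were at most 1 kb. In Eppk1 the 4 regions ran from chr15:76103360 to chr15:76105896, and in Klhdc4 3 regions lay within 3 kb. Cpeb2, a regulator of mRNA translation, held 3 regions from chr5:43232557 to chr5:43235019 with values of 5.23, 8.48 and 4.45. The gene with 5 regions was Gm38510 on chromosome 1, with values of 4.87 to 7.82, and it shared 3 of them with the overlapping gene C130026I21Rik. On the same chromosome Sp110 held 4 regions and shared 3 with Sp140, both of them nuclear body proteins of the Sp100 family. Rex2, Eqtn and Eppk1 also held 4 each, and 9530057J20Rik and Hivep1 held 3. How reads from near-identical gene copies were placed is not given in the sources used here. Of the regions, 25 lay in more than one gene and cannot be given to either.

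Few regions overlapped non-coding genes, 79 of 1246 (6.34%). Long non-coding RNA genes took 71 of these (5.70%) and made up 4.30% of the interior. A microRNA gene and a tRNA gene were each overlapped by 1 region. The tRNA gene, n-TNgtt11, was met over 3 bp at its edge by a region in BC107364 (log-LR 4.43). Across chromosomes the density ran from 1.75 per Mb on chromosome 1 to 2.79 on chromosome 15, with a median of 2.35.

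Gene lists of known function were read against the share of all eligible genes with a region, 6.18%, and their density of 2.28 per Mb. The density intervals take each region as a separate count. Neighbouring regions of one gene were often close, with 95 of 194 gaps at most 1 kb, so these intervals can be too narrow. The list of highest density was that of hormone and fasting response. Genes known to respond to glucocorticoids or to FOXO factors, both active in fasting, held 12 regions in 8 of 28 genes (28.6%, 15.3 to 47.1%), or 11.4 per Mb (5.90 to 20). Map3k6, a stress kinase, had 12.4 at an inner start, 326 bp downstream. Klf9 and Klf15, both Krüppel-like transcription factors induced by glucocorticoids, had 6.98, and 5.41 and 4.93. The pair of regions in Klf15 lay 465 and 887 bp downstream of an inner start. Further hosts, looked up after the values were seen, were Zbtb16 (5.21), Sgk1, a kinase induced by glucocorticoids (4.52), and Sesn1, a stress-induced regulator of mTOR, whose 3 regions had 4.98, 4.32 and 3.54.

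Genes of insulin, mTOR and autophagy signalling had 4 hosts of 48 (8.33%, 3.29 to 19.6%) at 2.28 per Mb, equal to the density of all eligible genes. The hosts were Insr, the insulin receptor (log-LR 8.62), the adaptors Irs1 (7.47) and Irs2 (4.45 and 4.36), and Prkaa2, a catalytic subunit of the energy sensor AMPK (6.72). The genes of ketone body and fatty acid use had 4 hosts of 43 (9.30%, 3.68 to 21.6%) at 3.0 per Mb, with an interval of 0.975 to 7.0 that includes the value for all genes. Among these hosts, Bdh1, which interconverts beta-hydroxybutyrate and acetoacetate, had 4.58 and 3.81 at 214 and 832 bp downstream of an inner start. Oxidative phosphorylation genes had 2 hosts of 53, Cox5a (5.07) and Atp5g3 (4.94), both downstream of an inner start.

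Genes of the transcriptional clock had 5 hosts of 25 and 6.53 regions per Mb (2.62 to 13.5). Clock, a core activator, had 8.81 and 4.78, Bhlhe41, a repressor of the loop, 5.89, Dbp, a clock output factor, 5.33, and Usp2, a deubiquitinase of clock proteins, 6.42 and 3.96. Immediate early genes had 3 hosts of 27 and 7.23 per Mb, with a wide interval of 1.49 to 21.1. All 3 values were low, 3.96 in Npas4, 3.75 in Nr4a1 and 3.71 in Jun. Of the same 27 genes, 10 had a region at an end (37%), beside 13.4% of all eligible genes. Across the lists this share ran from 0% for astrocyte markers to 45.8% for insulin, mTOR and autophagy genes. It was 42.9% for histone acylation genes, so a high share was not particular to immediate early genes. With ends set at 500 bp, 40% of the list were hosts, beside 8.66% of all eligible genes. Regions centred between 500 bp and 1 kb from an end then count as inside, so this share overlaps with the share at ends. With ends at 1 kb and a log-LR of at least 5, no gene of the list was a host.

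Receptor and scaffold genes of glutamate and GABA synapses had the largest share of hosts of any list, 13 of 33 (39.4%, 24.7 to 56.3%), and 6.95 regions per Mb (3.97 to 11.3). Cacng2, an AMPA receptor auxiliary subunit, had 10.2 at chr15:78066804-78066932, 41.6% along the gene. Shank3, a postsynaptic scaffold, had 6.37 and 3.52, the lower one 396 bp upstream of an inner start. Gabbr1, a GABA-B receptor subunit, had 6.24 at 1535 bp from an end. Dlg4, which encodes PSD-95, and Gria2, an AMPA receptor subunit, were looked up after the values were seen and had 4.62 and 4.71. Near an annotated start lay 5 of the 16 regions in the list. The median length of these 33 genes, 66.9 kb, was above that of all eligible genes, 19.7 kb.

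By density, other neuronal groups stood nearer the whole. By share of hosts, the intervals of some lay above 6.18%. These were channel genes (14.3%, 6.26 to 29.4%), calcium, cAMP and protein kinase C genes (17.1%, 8.53 to 31.3%) and cytoskeletal genes (12.7%, 6.30 to 24.0%). Their genes were longer, with medians of 40.2, 61.1 and 78.0 kb beside 19.7 kb for all eligible genes. Presynaptic release genes had 3 hosts of 40 (7.50%) and 1.19 regions per Mb (0.245 to 3.48), with Synj1 (3.92), Syt7 (3.83) and Rimbp2 (3.41) all under the median log-LR. Voltage-gated channel genes had 5 of 35 and 2.73 per Mb. Their hosts were Cacnb3, Scn8a (5.64), Kcnc2 (4.77 and 4.67), Cacna1b (4.33) and Cacna1h. Calcium, cAMP and protein kinase C genes had 7 of 41 and 3.06 per Mb, among them Itpkb, an inositol trisphosphate kinase (6.29), Gnb1, a G protein beta subunit (6.18), and Atp2b1, a calcium pump (6.06). Cytoskeletal genes had 7 of 55 and 1.52 per Mb, with Myo5a (7.58), Map4 (6.34), Sptbn1 (5.72) and Kif3a (5.18).

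Genes that act on chromatin and RNA were hosts more often than all genes together at the limit of 1 kb from ends, and they were also longer, with medians of 39.9 kb for RNA-binding, 32.4 kb for acylation and 69.4 kb for methylation and remodelling genes. Splicing factors and RNA-binding proteins had 12 hosts of 56 (21.4%, 12.7 to 33.8%) and 4.48 regions per Mb (2.51 to 7.39). They included Cpeb2, Srsf4 (7.49 and 5.36), Elavl3 (6.03) and Hnrnpu (5.28). Writers, erasers and readers of histone acylation had 6 of 35 and 4.78 per Mb (2.06 to 9.41). Hdac7, a class IIa histone deacetylase, had 8.62, Brd2 8.30 and 3.96, Sin3a 5.45, and Sirt5, a mitochondrial deacylase, 5.35, and 5 of the list's 8 regions were near an annotated start. Genes of histone and DNA methylation and of remodelling had 11 of 56 (19.6%, 11.3 to 31.8%) and 3.6 per Mb (1.97 to 6.04). With ends set at 2 kb and 5 kb their share was 5.36% and 1.82%, beside 5.10% and 5.08% of all eligible genes, so it was no longer clearly above all genes at 2 kb and was below them at 5 kb. Chd3, a NuRD remodeller (6.89), Kmt2e (5.66 and 4.43), Nsd1 and Tet3, an enzyme that oxidises methylcytosine (5.57), led that list, and the regions of all 4 were within 2 kb of a gene end.

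By density, several signalling lists were below the whole. By share of hosts, nuclear receptors and coregulators (9.68%), MAP kinase genes (9.80%) and ubiquitin genes (10.2%) were above the 6.18% of all eligible genes. The Wnt, Notch, TGF-beta and Hedgehog list (5.77%) was below it. Nuclear receptors and coregulators had 3 hosts of 31 (2.04 per Mb), among them Nsd1 and Thra. MAP kinase genes had 5 of 51 (1.82 per Mb), among them Dusp8 (9.07), Mapk8ip1 (7.62), Sos2 (7.48) and Map4k3 (6.00). Ubiquitin ligases and deubiquitinases had 6 of 59 (1.44 per Mb), with Usp2, Cblb (5.57), Trim9 (5.34) and Ubr2 (4.15). Genes of Wnt, Notch, TGF-beta and Hedgehog signalling had 3 of 52 (1.17 per Mb), Smo, Rbpj (6.51 and 4.54) and Ptch1 (3.47). In each of these the interval of the density included 2.28 per Mb.

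**Figure D5:**
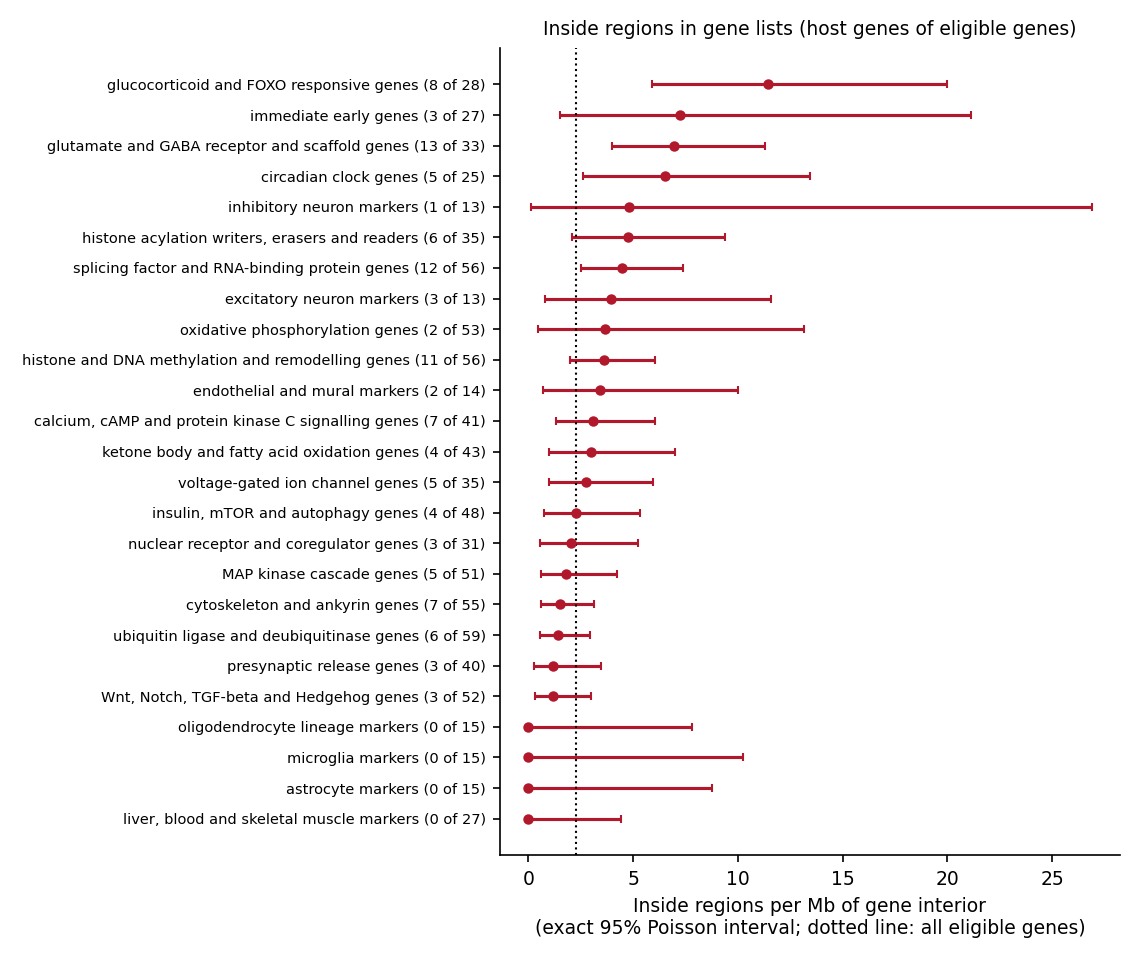
Regions inside genes per Mb of gene interior for the gene lists described, with exact 95% Poisson intervals and, in brackets, host genes of eligible genes. The dotted line is the density of all eligible genes, 2.28 per Mb, and 4 lists have intervals wholly above it: glucocorticoid and FOXO, glutamate and GABA, clock, and splicing and RNA-binding. Close regions of one gene count separately, so intervals can be too narrow. The lower limits for clock (2.62) and for splicing and RNA-binding (2.51) are near the line.

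Markers of the cell types in cortex were mostly without a region. Excitatory neuron markers had 3 hosts of 13, among them Fezf2 (4.32), a specifier of deep-layer neurons, and Tbr1 (4.01). Inhibitory neuron markers had 1 of 13, Pvalb (3.44). Endothelial and mural markers had 2 of 14, Abcb1a, the blood-brain barrier efflux pump (6.89 and 5.18), and Tek, the angiopoietin receptor (6.42). Astrocyte, oligodendrocyte lineage and microglia markers each had 0 of 15, which allows a share of up to 20%, and markers of liver, blood and skeletal muscle had 0 of 27, which allows up to 11.1%. The share of all eligible genes, 6.18%, lies under both limits, so these counts of 0 do not set the lists apart. A list of regions that differ between feeding states does not show which cells were sampled.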

How the data were processed

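H3K9bhb ChIP-seq of mouse occipital cortex was deposited as lists of regions for fasted and for ad libitum mice. The submitters' processing notes name Bowtie2, MACS2 and mm10, with no versions or roles. The log-LR deposited by the authors is a score per region, per the file headers. For its log base, cutoff, scaling between groups and any pooling of libraries, nothing is given in the sources used here. A difference in depth or yield between groups would move the lists.

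Starts were read as counted from 0 and are printed from 1. Genes came from the RefSeq table of GRCm38.p6 (49997 genes, no exons), and starts and sequences from the RefSeq promoter table of the same build, which was used on 18 autosomes. Placement, counts and densities were computed with Python 3.11.15, pandas 2.3.3 and scipy 1.17.1, and the placement was tested on simulated data. Wilson intervals are given for shares and exact Poisson intervals for densities, and a count of 0 is given the limit that 3 counts allow.

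Named genes are the hosts of the 10 highest log-LR values, the 10 genes with most regions, the hosts of the 5 widest regions, up to 4 hosts of each of 26 lists, and regions over non-coding genes of at most 300 bp. A few genes taken by it, and 1 of the lists, are not reported here. The members and lists were chosen with earlier results of these data known. The alternatives varied the gene length limit, the distance from ends, the log-LR minimum, merging and runs.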

Additional observations from a re-analysis of the deposited data

How the results depend on the processing

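No test was run, so the alternatives show how far counts and shares moved. Asking for the whole region inside the gene could change nothing, since regions over 1 kb from an end by their centre and at most 1471 bp wide lie wholly inside. At a log-LR of at least 5 there were 622 regions (1.14 per Mb, 3.36% of eligible genes as hosts, 11.9% of hosts with an end region, median 6.24). At 10 or more there were 54 (0.0990 per Mb, 0.316%, 1.82%, median 12.8, and 11.8% near a start). With ends set at 500 bp, density was 3.21 per Mb, hosts 8.66%, hosts with an end region 43.4% (by construction, since the 1 kb end window then takes in these regions) and the share near a start 44.9%. At 2 kb these were 1.87 per Mb, 5.10%, 12.2% and 23.2%, and at 5 kb, with 740 regions, 1.73 per Mb, 5.08%, 12.7% and 16.3%. A gene limit of 100 kb gave 2.52 per Mb, 4.97% hosts and 33.0% near a start, and 300 kb gave 6.78% hosts. Merging near regions gave 2.10 per Mb and a median log-LR of 5.08, and keeping runs gave 2.45 per Mb. The share near a start was 22.0% within 500 bp, 10.6% within 250 bp, and 36.1% over hosts with a start in the table; these alternatives were chosen after seeing the data. Among the shares of gene lists under these settings, 47 left their interval and 213 did not. The 213 include all 26 lists under the setting that could change nothing. The glucocorticoid and FOXO, the glutamate and GABA and the ion channel lists were above the share of all eligible genes under 11 of 11 settings, the reported one and the one that could change nothing included. The settings reuse the same regions. At a log-LR of at least 10 each of these lists was above through 1 host gene, of 28, 33 and 35 eligible genes. No paired analysis was possible because neither list has values for single libraries, and leaving out replicates was not run for the same reason.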

Other observations

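Gene families that share the letters at the start of their symbol were counted after the data had been seen, for the 25 families with at least 40 eligible genes. Genes of the Ankrd family, with ankyrin repeats, were hosts in 7 of 46 cases (15.2%, 7.57 to 28.2%) and held 4.45 regions per Mb. Zinc finger genes of the Zfp family were hosts in 19 of 378 (5.03%, 3.24 to 7.72%) at 2.55 per Mb. Solute carrier genes (Slc) were hosts in 17 of 344 (4.94%, 3.11 to 7.77%) at 1.58 per Mb, and Tmem genes in 7 of 208 (3.37%). The chemosensory receptor families expressed outside the cortex had few hosts, 4 of 151 odorant receptor genes (Olfr, 2.65%, 1.03 to 6.61%), which are short and held 4.58 regions per Mb, and 4 of 144 vomeronasal receptor genes (Vmn, 2.78%, 1.09 to 6.92%) at 1.28 per Mb. Their share intervals include the 6.18% of all eligible genes. The keratin genes (Krt, 0 of 53) had no region inside, which allows a share of up to 5.66%, and the Pramel genes (0 of 45) had none, which allows up to 6.67%. The Wilson interval for Krt reaches 6.76%, above the 6.18% of all eligible genes. Both families are short, with 0.341 and 0.500 Mb of interior, so these counts of 0 do not set them apart. Single regions of interest for their value, such as that of Mov10, were not tested for repeats or for gaps in the assembly.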
